A study of Homo sapiens with 6 samples.

Results

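The array carried 23042 custom probes for long noncoding RNAs, and 346 of them separated the 2 hairpin groups of the study in RPMI-8402 cells. These 346 members were chosen by measured values. Eligible were the 7355 custom probes without an outlier mark that the scanner software called well above background on both arrays labelled shGATA3 or both labelled shTCF1. A probe became a member if the means of the 2 hairpin groups differed by at least 1 on the log2 scale and both arrays of one group lay above both arrays of the other. The shGATA3-labelled arrays were higher for 181 members and the shTCF1 arrays for 165, together 4.70% of the eligible probes. The difference between the hairpin groups, having made the selection, is given throughout as a description with no test.

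RPMI-8402, a cell line grown from a human acute leukaemia of the T lineage, was transduced with lentivirus carrying a control, a short hairpin RNA directed at GATA3 (shGATA3) or one directed at TCF7, which encodes TCF1 (shTCF1), and EGFP-positive cells were sorted after 48 h. All 3 groups shared the time of 48 h, and each held 2 arrays of 1 cell line. The study's methods name lentiviral vectors for the control and GATA3 hairpins but none for TCF7. They describe the EGFP sort without naming RPMI-8402, so the same virus and sort for all 3 groups are not stated there. The study describes 2 independent experiments, with a control hairpin. Each sample was hybridised to 1 array of a 1-colour Agilent design, and every level below is the log2 intensity of a probe minus the 75th percentile of its array.

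Long noncoding RNAs are transcripts with no evident protein product, often spliced and polyadenylated like messenger RNAs but usually at lower levels and in fewer cell types. Some act on nearby genes, some in the nucleus at a distance, and many have no known role. GATA3 and TCF1 are transcription factors that act downstream of Notch signalling in the thymus: GATA3 binds GATA motifs and is needed for commitment to the T lineage, and TCF1 binds DNA through its HMG box and can act with beta-catenin. Many T-cell leukaemia lines express both.

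The targeted genes were read first. The GATA3 probe read 1.51 and 1.55 on control, 1.47 and 1.62 on the 2 arrays that carry the shGATA3 label, and 1.83 and 1.96 on shTCF1. GATA3 was thus not lower on the arrays labelled shGATA3, and every direction given for them below rests on that label. TCF7 lay at 5.94 and 5.91 on control and at 4.66 and 4.74 on the shTCF1 arrays by one probe, a log2 difference of -1.23 ± 0.09 (SE of the limma fit, adjusted p = 0.00756), and its other probe differed by -1.41. On the shGATA3-labelled arrays these probes lay 0.39 and 0.59 above control and were not called (adjusted p = 0.0762 and 0.0678). Of 11 markers of T-lineage blasts, 10 had a probe well above background on all 6 arrays, the exception being CD1A. The same held for 3 of 4 B-cell markers, 2 of 3 myeloid, 2 of 4 NK-cell and 2 of 3 erythroid markers that had a probe. Of 21 marker probes tested, 4 were called between the hairpin groups, all higher on the shGATA3-labelled arrays. The T-cell surface marker CD2 lay at 3.87 and 3.90 on control, 3.43 and 3.52 on the shGATA3-labelled arrays and 1.76 and 1.79 on shTCF1, a hairpin difference of 1.70 ± 0.09 (SE, adjusted p = 0.00227). NCAM1, which encodes the NK-cell surface protein CD56, lay at -0.43 and -0.56 on control, 1.04 and 1.01 on the shGATA3-labelled arrays and -1.30 and -1.14 on shTCF1 by its only probe above background, a difference of 2.25 ± 0.11 (adjusted p = 0.0018). The other two were LMO1, at 0.65 ± 0.10 (adjusted p = 0.0257), and CD1A, which was above background only on the shGATA3-labelled arrays. The linear levels of the tested NK-cell probes, in units of the array's 75th percentile, summed to 1.08 and 1.24 on control, 2.39 and 2.43 on the shGATA3-labelled arrays and 0.573 and 1.11 on shTCF1. Those of the T-lineage probes summed to 296 and 306, 460 and 552, and 298 and 369. CD3D weighs most in this sum, at 7.77 and 8.22 on the shGATA3-labelled arrays, and was not called between the hairpin groups (limma adjusted p = 0.209). The hairpin difference was -0.54 for CD5, -0.29 for CD7, -0.22 for CD3E and -0.49 and -0.46 for the NOTCH1 probes, none of them called. The other T-lineage probes were higher on the shGATA3-labelled arrays than on shTCF1. Of 8 NK-cell probes 5 were above background on no array, both KLRD1 probes among them. The part of these markers in the results was not tested. Per array, 51.1% to 56.2% of probes passed the scanner's background mark, and the 75th percentile of intensity was 332 and 358 on the control arrays against 201 to 217 on the hairpin arrays. All 6 arrays lay on 1 slide, with both controls in one column of it and all hairpin arrays in the other, so that slide column and control against hairpin cannot be told apart. Within the hairpin column shTCF1 held rows 1 and 2 and the shGATA3-labelled arrays rows 3 and 4. Slide row and hairpin group cannot be told apart either.

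Most members were dim transcripts. In bulk RNA, fewer cells expressing a transcript and less of it per cell cannot be told apart. The median level over the 6 arrays was -3.31 for the members higher on the shGATA3-labelled arrays and -3.24 for those higher on shTCF1, against -2.00 for all eligible probes. Of the 181 members higher on the shGATA3-labelled arrays, 52 were well above background on all 4 hairpin arrays, 100 were not well above background on either shTCF1 array and 29 on 1 of them. Of the 165 higher on shTCF1, 61 were above background on all 4 hairpin arrays, 68 were dim on both shGATA3-labelled arrays and 36 on 1. The median size of the difference was 1.40 in each direction. It reached 2 in 44 and 37 members and 3 in 10 and 8. Allowing the arrays to overlap would have admitted 192 and 172 probes. The files name the probes by transcript: among the 181, 82 carried an identifier of the assembled transcript catalogue (TCONS) alone, 80 an Ensembl transcript alone and 19 both, and among the 165 these numbers were 82, 69 and 12. Of all eligible probes 45.8%, 44.5% and 9.35% were of these kinds, shares close to those of the members.

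**Figure D1:**
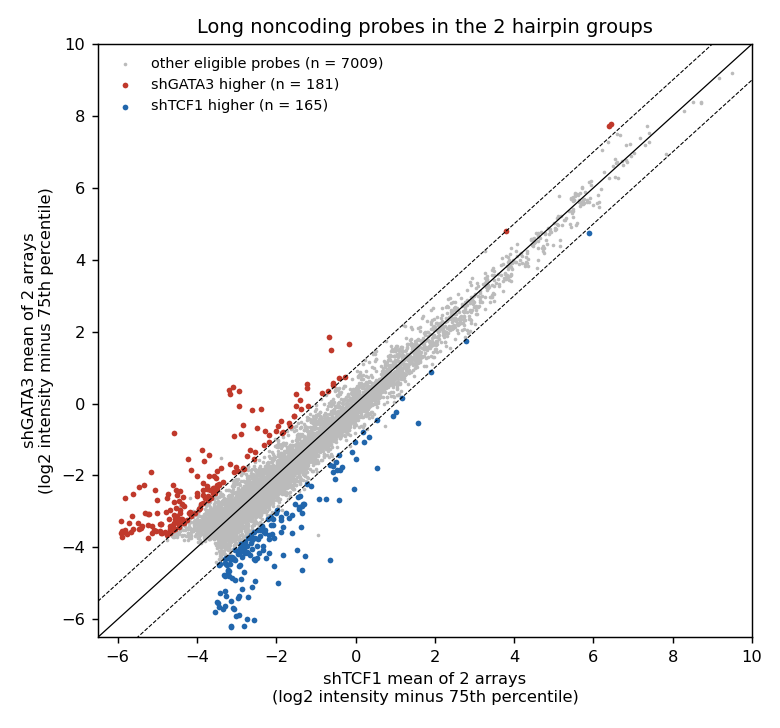
Mean level of each eligible long noncoding probe on the 2 shTCF1 arrays (x axis) against the 2 arrays labelled shGATA3 (y axis), both as log2 intensity minus the array's 75th percentile; dashed lines mark a difference of 1. The 181 and 165 members lie outside the dashed lines by construction, mostly at the dim end.

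The 3 members with the largest differences toward the shGATA3-labelled arrays among those bright on all 4 hairpin arrays were TCONS_00016941, TCONS_00017466 and TCONS_00017015, and all 3 had the same shape. TCONS_00016941 lay at 0.32 and 0.06 on control, 0.16 and 0.60 on the shGATA3-labelled arrays, and -3.49 and -2.91 on shTCF1. TCONS_00017466 lay at 0.28 and 0.21, 0.17 and 0.35, and -3.32 and -3.03 in the same order. TCONS_00017015 lay at 0.49 and 0.43, 0.23 and 0.49, and -3.34 and -2.54. In each, the control arrays overlapped the range of the shGATA3-labelled arrays and the shTCF1 arrays alone were low. The hairpin groups differed by 3.58, 3.44 and 3.30, which are folds of 11.9, 10.8 and 9.83. The mean of both hairpin groups was below control by the limma fit, with log2 differences of -1.60 ± 0.22 (SE, adjusted p = 0.0178), -1.70 ± 0.12 (adjusted p = 0.00894) and -1.75 ± 0.24 (adjusted p = 0.0176). The shTCF1 arrays alone carried this, as the shGATA3-labelled mean differed from control by 0.19, 0.01 and -0.10. The shTCF1 arrays also chose the members, so these values are a description.

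In 5 of the other 7 named members of this direction the shGATA3-labelled arrays stood far above both other groups. TCONS_00028389 lay at -0.78 and -1.09 on control, 1.80 and 1.90 on the shGATA3-labelled arrays and -0.64 and -0.71 on shTCF1. TCONS_00028388, the transcript numbered just before it, lay at -1.53 and -1.54, 1.47 and 1.52, and -0.75 and -0.51. Both were thus lowest on control, and the shGATA3-labelled mean exceeded it by 2.78 ± 0.13 and 3.03 ± 0.12 (SE of the fit). The arrays of shTCF1 also lay above control, by 0.26 ± 0.13 and 0.91 ± 0.12. ENST00000511693 (also TCONS_00009326) lay at -2.61 and -2.17 on control, -0.13 and 0.00 on the shGATA3-labelled arrays and -3.00 and -2.89 on shTCF1. TCONS_00009835 lay at -2.33 and -2.16, -0.16 and -0.18, and -2.60 and -2.63. ENST00000428495 (also TCONS_00028045) lay at -2.47 and -2.42, -0.24 and -0.06, and -2.65 and -2.14. In these 3 the control arrays sat close to the shTCF1 arrays, within them for ENST00000428495 and just above them for ENST00000511693 and TCONS_00009835, while the shGATA3-labelled arrays were 4.99-fold, 4.23-fold and 4.90-fold above control.

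The last 2 of the 10 had control nearer the higher group or spread over both. ENST00000449958 (also TCONS_00000523) lay at -1.34 and -1.45 on control, -0.86 and -0.96 on the shGATA3-labelled arrays and -3.38 and -2.75 on shTCF1. ENST00000505712 lay at -2.75 and -1.13 on control, -0.68 and -0.999 on the shGATA3-labelled arrays and -2.77 and -3.00 on shTCF1. Its control arrays were 1.63 apart, so where control lay within the span of the hairpin groups was not settled for it. The hairpin mean was not called against control for either, at -0.59 ± 0.19 (adjusted p = 0.0917) and 0.08 ± 0.44 (adjusted p = 0.92).

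Among the members higher on shTCF1 and bright on all 4 hairpin arrays, the largest differences were smaller, from 1.61 to 2.33. ENST00000447975 lay at 0.14 and 0.22 on control, -1.86 and -1.71 on the shGATA3-labelled arrays and 0.32 and 0.78 on shTCF1. TCONS_00006341 lay at -0.74 and -0.68, -2.86 and -2.52, and -0.46 and -0.35 in that order. TCONS_00009735 lay at 1.19 and 1.22, -0.61 and -0.47, and 1.47 and 1.69. In these 3 the control arrays lay between the hairpin groups but near shTCF1, and the shGATA3-labelled mean was below control by 3.90-fold, 3.94-fold and 3.35-fold. The hairpin mean was below control at -0.80 ± 0.15 (adjusted p = 0.0313), -0.84 ± 0.12 (adjusted p = 0.0202) and -0.68 ± 0.10 (adjusted p = 0.0211) by limma. The shGATA3-labelled arrays alone carried it, as the shTCF1 mean lay above control by 0.37, 0.31 and 0.38. Those labelled arrays also chose the members, so these values are a description.

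A second shape had control near the middle. TCONS_00001833 lay at -1.36 and -1.09 on control, -2.19 and -2.56 on the shGATA3-labelled arrays and 0.14 and -0.22 on shTCF1. TCONS_00025694 lay at -1.77 and -1.44, -2.58 and -2.75, and -0.63 and -0.86. ENST00000517384 lay at -2.14 and -2.07, -2.93 and -3.15, and -1.44 and -1.25. The hairpin groups of these 3 stood on opposite sides of control by nearly equal steps. For TCONS_00001833 the steps were -1.15 ± 0.20 and 1.18 ± 0.20, for TCONS_00025694 -1.06 ± 0.16 and 0.86 ± 0.16, and for ENST00000517384 -0.94 ± 0.13 and 0.75 ± 0.13 (shGATA3-labelled and shTCF1 minus control, SE of the fit). Their hairpin means differed from control by 0.01, -0.10 and -0.09, with adjusted p of 0.963, 0.633 and 0.586.

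The remaining 4 named members of this direction were less uniform. TCONS_00000717 lay at -0.83 and -1.05 on control, -3.60 and -3.59 on the shGATA3-labelled arrays and -1.72 and -1.47 on shTCF1. ENST00000541707 lay at -0.25 and -0.10, -2.89 and -2.42, and -0.94 and -0.92. In both, control was the highest group and both hairpin groups were lower, the hairpin mean by -1.66 ± 0.12 (adjusted p = 0.00894) and -1.62 ± 0.15 (adjusted p = 0.0115). TCONS_00011945 lay at -2.11 and -2.32, -3.33 and -3.53, and -2.29 and -1.36, with control overlapping shTCF1. ENST00000560481 lay at -4.34 and -4.26 on control, dim on both, -3.42 and -3.70 on the shGATA3-labelled arrays and -0.85 and -2.90 on shTCF1. It rested largely on 1 array: without shTCF1 replicate 1 its hairpin difference of -1.69 was -0.66.

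**Figure D2:**
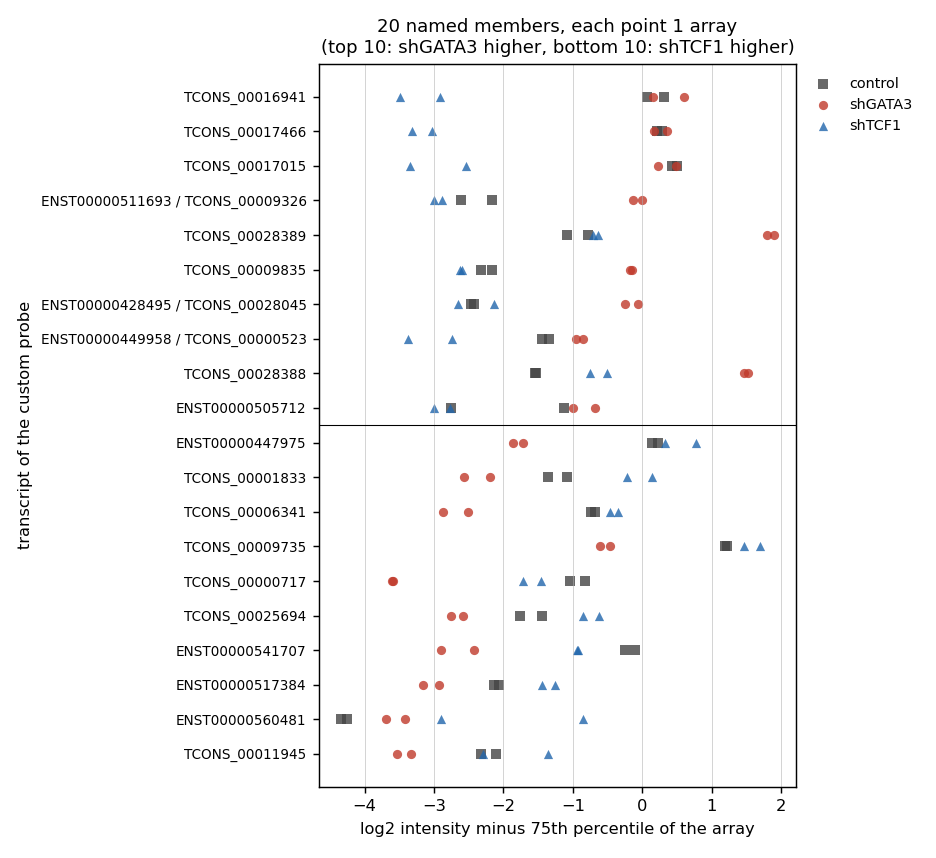
Level of the 20 named members on each of the 6 arrays (x axis, log2 intensity minus the array's 75th percentile); squares are control, circles the arrays labelled shGATA3 and triangles shTCF1. Control lies with the shGATA3-labelled arrays in the first 3 transcripts and near shTCF1 in several others, for example at 1.19 and 1.22 against 1.47 and 1.69 in TCONS_00009735.

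For members dim on both arrays of the lower group the difference is only bounded. The bound sets the mean of the brighter group against the dim arrays, each taken at the higher of its own value and the lowest signal of any probe well above background on that array. TCONS_00003274 lay at -1.08 and -1.003 on control, -0.76 and -0.50 on shTCF1 and -4.09 and -4.63, not well above background, on the shGATA3-labelled arrays. It was at least 12.6-fold higher on shTCF1 and at least 9.50-fold higher on control than on the shGATA3-labelled arrays. TCONS_00029808, at -1.37 and -1.34 on shTCF1, was at least 7.54-fold higher there, and its control arrays lay at -3.78 and -3.42. ENST00000449063 reached a bound of 7.74-fold on shTCF1 levels of 0.83 and -3.40. Its shTCF1 arrays were 4.23 apart and without replicate 1 the hairpin difference of -2.95 was -0.84. In the other direction the largest bounds were 4.32-fold for ENST00000443921, 4.12-fold for ENST00000425370 (also TCONS_00015884) and 3.51-fold for TCONS_00016945. ENST00000443921 lay at -1.97 and -1.85 on the shGATA3-labelled arrays against -3.15 and -4.26 on control. ENST00000425370 lay at -1.78 and -1.90 on those arrays while its control arrays were 2.88 apart. TCONS_00016945, with -1.94 and -2.07 on the shGATA3-labelled arrays and -1.80 and -1.69 on control, was slightly higher on control than on those arrays, with shTCF1 far below both. Where both dim arrays lay above that lowest signal, as for ENST00000449063, the bound equals the hairpin difference itself. The rule had already set this difference at 2-fold or more. A bound of at least 2-fold was reached by 29 of the 100 dim members higher on the shGATA3-labelled arrays and by 66 of the 68 higher on shTCF1. These counts are fixed in part by the rule, so nothing is read from them. The lowest signal above background was higher on the shTCF1 arrays, at -4.14 and -3.91, than on the shGATA3-labelled ones, at -4.64 and -4.48.

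Just inside the threshold lay TCONS_00008754 and ENST00000417650, both 1.00 higher on the shGATA3-labelled arrays, and TCONS_00006500 and ENST00000499110, both 1.00 higher on shTCF1. Just outside, with separated arrays, lay TCONS_00029766 and ENST00000449346 in the first direction and TCONS_00029312 and ENST00000522460 in the other, all at the threshold when rounded to 2 decimals. The 3 brightest members of each direction were looked up after their values were seen. ENST00000356911 (also ENST00000439173) lay at 6.66 and 6.66 on control, 7.69 and 7.87 on the shGATA3-labelled arrays and 6.38 and 6.49 on shTCF1. ENST00000370292 (also ENST00000415810) lay at 6.51 and 6.64, 7.60 and 7.82, and 6.35 and 6.44. These are 2 probes with nearly the same levels on every array, and whether their transcripts share sequence was not tested. TCONS_00028248 was highest on control at 5.33 and 5.28 and lowest on shTCF1 at 3.88 and 3.70. On the other side TCONS_00025825 lay at 5.88 and 5.88 on shTCF1 while its control arrays lay wide apart at 5.69 and 4.56.

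The position of control was read from the 2 control arrays. They lay between the hairpin groups, overlapping neither, for 126 of the 346 members (36.4%). Only the shGATA3-labelled arrays stood apart from control for 76 and only the shTCF1 arrays for 79. Both hairpin groups lay on one side of control for 52 and neither stood apart for 13. Control between the groups had a share of 5.29% among all eligible probes and 6.41% among all 31131 tested probes. A larger share is fixed in part by the choice of members, whose hairpin groups never overlap, while they did not overlap for 52.8% of all tested probes. The shGATA3-labelled arrays stood apart from control for 60.8% of tested probes and the shTCF1 arrays for 68.4%, so a group apart from control was common at 2 arrays a group.

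Control between the groups was the largest class in both directions, followed by the higher group alone apart from control. Control lay between the groups for 60 of the 181 members higher on the shGATA3-labelled arrays (33.1%) and for 66 of the 165 higher on shTCF1 (40.0%). Only the shGATA3-labelled arrays stood apart, above control, for 44 of the 181, and only shTCF1, below control, for 37. Among the 165, only shTCF1 stood apart, above control, for 42 and only the shGATA3-labelled arrays, below it, for 32. Of the 7355 eligible probes, only the shGATA3-labelled arrays stood apart above control for 737 and below it for 327. For shTCF1 alone these were 1221 and 406. Both hairpin groups lay below control for 20 of the 181 and above it for 7. Among the 165 these were 13 and 12, and among the 7355 eligible probes 531 and 2303. Of the 111 members bright on all 6 arrays, control lay between the groups for 50 (45.0%). The median place of control on the span from the lower hairpin mean, at 0, to the higher, at 1, was 0.56 and 0.55 in the 2 directions.

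**Figure D3:**
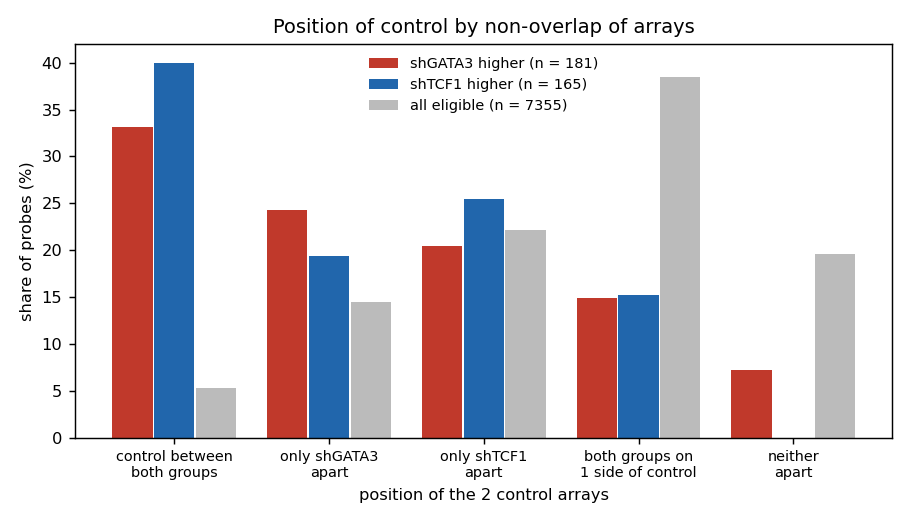
Share of probes (y axis, percent) in each class of the position of the 2 control arrays (x axis) for the members higher on the shGATA3-labelled arrays, those higher on shTCF1 and all 7355 eligible probes. Control lies between the groups for 33.1% and 40.0% of the members and 5.29% of eligible probes; the member shares follow in part from the rule.

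**Figure D4:**
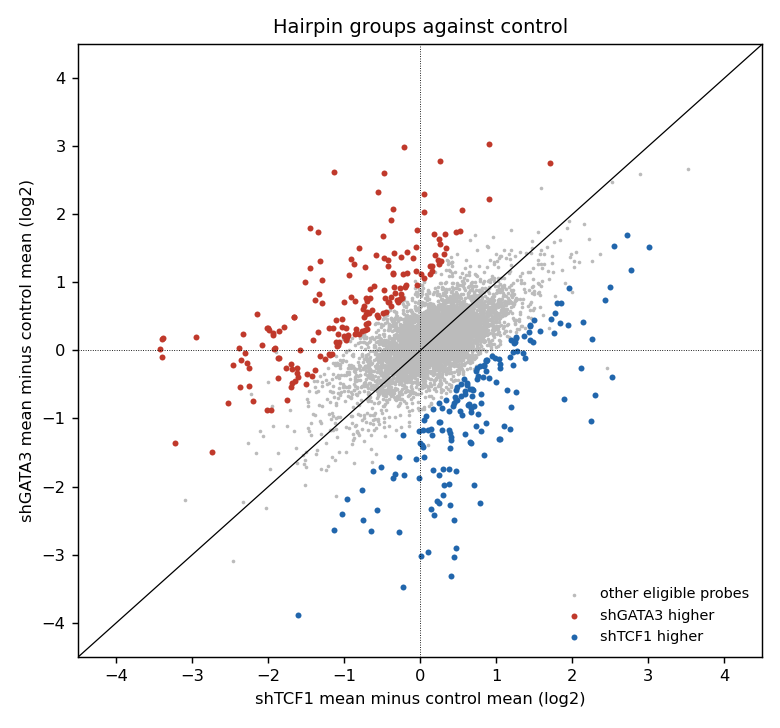
Difference of each hairpin mean from the control mean (log2) for all eligible long noncoding probes, shTCF1 on the x axis and the arrays labelled shGATA3 on the y axis; both axes use the same control arrays. Members fill a band on each side of the diagonal, from the quadrants where the groups move apart to those where both lie on one side of control.

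The mean of both hairpin groups was also set against control. This contrast is orthogonal to the one the rule used, but it rests on the same 4 hairpin arrays, and a member for which 1 hairpin group moved alone, such as TCONS_00016941, can be called through that group. Its counts over the members are therefore given as a description. By limma with Benjamini-Hochberg adjustment over all tested probes, the hairpin mean was higher than control for 35 of the 346 members (10.1%) and lower for 59 (17.1%). Over all tested probes the shares were 8.05% and 5.12%, and over the eligible probes 11.1% and 3.37%, and nothing about the members is read from the gap to these shares. Under VSN, a normalization that scales and offsets each array, the members split into 27 higher and 63 lower while all tested probes went from 61.1% of their calls higher to 42.4%. The median of the hairpin mean minus control was 0.06 over all tested probes, 0.19 over eligible probes and -0.09 over the members. The 94 calls were 19 without control replicate 1 and 40 without control replicate 2. They were 59 without shGATA3 replicate 2, and 62 and 60 without shTCF1 replicates 1 and 2. With normexp background correction they were 224, of which 187 were higher and 37 lower. With no filter on dim probes, and in the table the authors deposited, limma called 0 of the members, with 133 and 63 of them at an unadjusted p below 0.05. In the deposited table the column of control replicate 2 followed no array's intensities closely, and its part in this was not tested.

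The largest of the higher calls were ENST00000441212, TCONS_00012071 and ENST00000484721. ENST00000441212 lay at -5.44 and -5.52 on control and -4.10 and -3.82 on the shGATA3-labelled arrays, dim on all 4, and at -2.31 and -2.66 on shTCF1. It was at least 4.11-fold higher on shTCF1 than on control, and the hairpin mean differed from control with an adjusted p of 0.00796. TCONS_00012071 was dim on control and shTCF1, and at -2.93 and -2.42 on the shGATA3-labelled arrays it was at least 3.60-fold above control (adjusted p of the hairpin mean 0.0246). ENST00000484721 lay at -4.06 and -3.81 on control, above background on 1 of them, at -2.05 and -2.43 on the shGATA3-labelled arrays and at -1.05 and -1.40 on shTCF1. Its hairpin mean exceeded control by 2.20 ± 0.17 (SE, adjusted p = 0.00894). These 3 were brighter in both hairpin groups than on control, or in the one where they could be measured. For ENST00000441212 and TCONS_00012071 the fit used signals not well above background, so their adjusted p is a description. With no filter on dim probes it was 0.0599 and 0.0902 by limma.

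The largest of the lower calls were TCONS_00007800, TCONS_00003510 and ENST00000456559. TCONS_00007800 lay at -1.27 and -1.26 on control, -2.99 and -2.76 on shTCF1 and -4.09 and -6.21, dim on both, on the shGATA3-labelled arrays, where it was at least 8.10-fold below control (adjusted p of the hairpin mean 0.0381). TCONS_00003510 lay at -2.12 and -1.90 on control and -3.61 and -3.13 on the shGATA3-labelled arrays, and on shTCF1, dim on both arrays, it was at least 4.04-fold below control (adjusted p 0.0166). ENST00000456559 lay at -0.76 and -0.96 on control, -2.43 and -2.27 on the shGATA3-labelled arrays and -3.49 and -3.72 on shTCF1, a hairpin mean of -2.11 ± 0.12 (SE, adjusted p = 0.00659) relative to control. All 3 were highest on control. For TCONS_00007800 and TCONS_00003510 the fit used the dim signals of 1 hairpin group, so their adjusted p is a description. With no filter on dim probes it was 0.118 and 0.0735 by limma.

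Each hairpin group against control is given as a description, since its arrays also chose the members, and both comparisons share the control arrays. Of the members higher on the shGATA3-labelled arrays, 39 of 181 were called higher on them than on control and 59 were called lower on shTCF1 than on control. Of those higher on shTCF1, 48 of 165 were called higher on shTCF1 than on control and 53 lower on the shGATA3-labelled arrays. Over all tested probes, 3.31% were called higher and 2.64% lower on the shGATA3-labelled arrays, and 10.1% higher and 6.41% lower on shTCF1. Nothing is read from these counts, as the rule used the same arrays. Scaling moved the split of calls over all tested probes: 55.6% of shGATA3-labelled calls and 61.1% of shTCF1 calls were higher, against 43.7% and 41.1% under VSN.

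Neighbouring catalogue numbers offered a second probe for some members. The rule did not use the number, although both probes were read on the same arrays, and the files hold no coordinates or probe sequences that would show whether such pairs come from one locus or share sequence. Of 15 pairs of members whose TCONS numbers follow each other, 14 had the same direction, the exception being TCONS_00029356 and TCONS_00029357 at -1.03 and 1.12. TCONS_00017015 and TCONS_00017016 differed between the hairpin groups by 3.30 and 3.56, TCONS_00003274 and TCONS_00003275 by -3.73 and -1.97, and TCONS_00029808 and TCONS_00029809 by -3.28 and -2.60. Over all 1221 pairs of eligible probes with consecutive numbers, 60.9% had the same sign. Where only 1 probe of a pair was a member, the partner had the same sign in 62.2% of 90 pairs, and its median difference in the direction of the member was 0.09. These partners had failed the rule, which by itself keeps their differences small, so nothing is read from that median.

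The manufacturer's catalogue part of the array, which the rule left out, held 10 probes filed under the Ensembl transcript of a member. All 10 were tested, 9 had the sign of the member and 3 were called in its direction between the hairpin groups by limma. These probes read transcripts of members on the same hairpin arrays that chose those members, so the calls are a description. The catalogue probe for ENST00000506335 lay at 0.29 and 0.25 on control, 1.53 and 1.81 on the shGATA3-labelled arrays and -0.14 and -0.05 on shTCF1. It differed by 1.77 ± 0.13 (SE, adjusted p = 0.00376) against 1.84 for the custom member. That for ENST00000536678 differed by -1.89 ± 0.17 (adjusted p = 0.00718) against -1.42, and that for ENST00000433371 by 2.21 ± 0.37 (adjusted p = 0.0348) against 1.58. The catalogue probe for ENST00000437267 was bright on all 6 arrays and differed by only 0.24 ± 0.09 (adjusted p = 0.20), where the custom member differed by 2.13. For ENST00000520426 the catalogue probe differed by 0.57 ± 0.38 against -1.08 for the member, and was dim on both shTCF1 arrays. Over all tested probes 2.77% were called higher and 2.47% lower on the shGATA3-labelled arrays than on shTCF1.

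**Figure D5:**
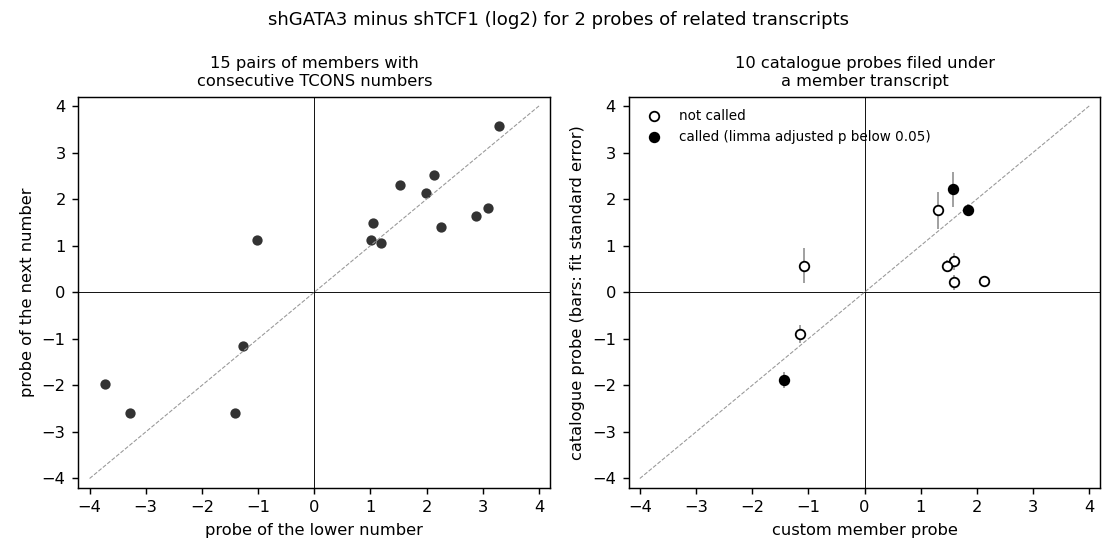
Difference of the shGATA3-labelled mean from the shTCF1 mean (log2, both axes) for 15 pairs of members with consecutive TCONS numbers (left) and for 10 catalogue probes against the custom member of the same transcript (right; bars are the standard error of the fit, filled points were called by limma). Both probes share their sign in 14 of 15 and 9 of 10 cases, all read on the arrays that chose the members.

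Long noncoding RNAs with established names are measured on the same arrays by catalogue probes. Of 23 such genes on a list drawn up for T cells and leukaemia, 14 had a catalogue probe and 13 could be tested, by 15 probes. The list was drawn up with earlier results of these data known, so calls of its genes are a description. Between the hairpin groups 2 genes were called. LINC00892, a long intergenic noncoding RNA gene on the X chromosome, lay at 0.86 and 0.94 on control, 0.72 and 1.06 on the shGATA3-labelled arrays and -2.91 and -2.27 on shTCF1, a difference of 3.48 ± 0.24 (SE, adjusted p = 0.0034). FAM30A, a noncoding gene near the immunoglobulin heavy chain locus, lay at 1.86 and 1.89 on control, -1.17 and -1.17 on the shGATA3-labelled arrays and 2.67 and 2.79 on shTCF1, a difference of -3.90 ± 0.10 (adjusted p = 0.000596). Its other probe differed by -4.19 ± 0.25 (adjusted p = 0.0024). LINC00892 had the shape of TCONS_00016941 and its like, with shTCF1 alone low, and FAM30A that of the members with the shGATA3-labelled arrays low and control near shTCF1. MALAT1, GAS5, SNHG1, CRNDE and MEG3 were measured on all arrays and were not called, with differences from -0.30 to 0.13. Over all uncalled genes tested the differences ran from -0.30 to 0.86, the largest for MIR17HG (± 0.20, adjusted p = 0.0787). MIR17HG was called lower than control in both hairpin groups by limma, by -1.14 on the shGATA3-labelled arrays and -2.00 on shTCF1. Of 561 tested catalogue probes for long noncoding genes, 16 were called higher and 14 lower, 5.35% in all, beside 5.58% of the probes for protein-coding genes.

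The RefSeq promoters of these 2 genes (GRCh38.p14, 250 bases before the start to 50 after it) are shown because each gene was low in only one hairpin group; no sequence was held for the members themselves. Capitals mark a GATA word, which is AGATAA with either A or T as its first letter and either A or G as its last, or the TCF word CTTTGA. Both strands were searched, and the GATA words are counted together. LINC00892 lies at chrX:136639293-136639592 and FAM30A at chr14:105917729-105918028, both on the plus strand.
LINC00892: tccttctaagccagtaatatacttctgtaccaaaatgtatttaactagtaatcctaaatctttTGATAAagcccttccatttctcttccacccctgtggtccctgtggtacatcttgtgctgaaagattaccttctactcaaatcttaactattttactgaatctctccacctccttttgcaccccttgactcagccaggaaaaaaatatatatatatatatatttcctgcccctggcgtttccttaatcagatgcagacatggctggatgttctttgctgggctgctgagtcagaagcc
FAM30A: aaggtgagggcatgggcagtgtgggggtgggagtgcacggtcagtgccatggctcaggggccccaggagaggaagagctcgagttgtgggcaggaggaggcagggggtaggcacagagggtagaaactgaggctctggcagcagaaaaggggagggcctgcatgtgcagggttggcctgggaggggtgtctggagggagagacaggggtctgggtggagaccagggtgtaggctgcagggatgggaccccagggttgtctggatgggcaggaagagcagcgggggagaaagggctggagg
The window of LINC00892 held 1 GATA word, from base 64, and that of FAM30A held none of the words. A GATA word was found in 25% of 35116 promoters of this length and the TCF word in 12.9%, so that the match is a description of these letters.

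Spread between replicates limits the dim members most. A difference of at least 1 between the 2 arrays of a group occurred for 3.37% of eligible probes on control, 1.60% on the shGATA3-labelled arrays and 3.77% on shTCF1. Among the 346 members it occurred for 47, 33 and 59, and among the 113 members bright on all 4 hairpin arrays for 3, 1 and 9. For comparison, the same rule applied against control gave 183 custom probes above and 282 below it for the shGATA3-labelled arrays, and 276 above and 291 below for shTCF1. With 2 arrays against 2, a two-sided exact permutation test of a single probe cannot go below p = 0.333, so that calls rest on the limma fit and its spread shared across probes.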

How the data were processed

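Expression of RPMI-8402 cells was measured on 6 one-colour arrays, 2 for each of control, shGATA3 and shTCF1, grouped and numbered as their titles say. Per the file headers, the deposited intensity values were made with Agilent Feature Extraction 10.7.1.1 (the submitters' processing notes name 9.1), which subtracted and detrended the spot background without scaling arrays to each other. The authors also deposited a table of log2 values, described as VSN-normalized, whose scale and centring are not stated. Its column medians were 4.99 and 5.11 for control, 4.94 and 5.00 for shGATA3 and 4.98 and 4.94 for shTCF1, and 3 of its columns followed another array's intensities more closely than their own, so it served only as an alternative. The column of control replicate 2 followed no array closely. Its highest Spearman correlation with any array was 0.757, against 0.934 or more for the other columns. No column of sample values was left unused.

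Control spots and outlier-marked spots were left out (71 probes, among them 3 that would have met the rule), spots of a probe were averaged, and log2 intensity minus the array's 75th percentile was used, as the selection rule names it. limma 3.58.1 in R 4.3.3 (lmFit, eBayes) fitted the 3 groups over 6 arrays with no covariate, with 3 residual and 2.45 prior degrees of freedom, on the 31131 probes that passed the background mark on both arrays of some group. A call is a Benjamini-Hochberg adjusted p below 0.05 over all of them. Scripts were tested on simulated data. Alternatives were VSN (written anew, trimming quantile 0.9, 7 iterations, 5 strata), quantile normalization, normexp with offset 50, other filters, thresholds of 0.8 and 1.5, an intensity trend, a replicate block and leaving out each array. The number of arrays limits the precision, and p-values measure the spread between these samples.

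The members and gene lists were chosen with earlier results of these data known. Named were, per direction, the 10 largest differences among members bright on all 4 hairpin arrays, the 3 largest bounds, the 2 nearest probes on each side of the threshold and the 3 largest calls of the hairpin mean against control, plus a list of known long noncoding genes. No transcript identifier was shared by 2 member probes. The files hold no coordinates or probe sequences, and the tables used here pair no gene name with the transcript identifiers, so neighbouring genes were not analysed here.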

Additional observations from a re-analysis of the deposited data

Results flagged for a closer look

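Known long noncoding genes whose effect differed between the hairpins by a limma test of shGATA3-labelled against shTCF1 arrays were LINC00892 (3.48) and FAM30A by both probes (-3.90 and -4.19). Their list was drawn up with earlier results of these data known. For the following named members every array of one hairpin group lay above control and every array of the other below it, and that difference was not tested because it chose the members. They were, with the log2 difference of the groups, ENST00000511693 (2.88), TCONS_00009835 (2.45), ENST00000449958 (2.15), ENST00000505712 (2.05), ENST00000447975 (-2.33), TCONS_00001833 (-2.33), TCONS_00006341 (-2.28), TCONS_00009735 (-2.12), TCONS_00025694 (-1.92) and ENST00000517384 (-1.69). The control arrays of ENST00000505712 were 1.63 apart, so where control lay was not settled for it. Control also lay between the groups for other named members outside this list. Among them were TCONS_00003274 (-3.73), TCONS_00029808 (-3.28), ENST00000443921 (3.25) and ENST00000449063 (-2.95), all dim on both arrays of the lower group. Groups of 2 arrays are too small for a test of single outlying arrays.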

How the results depend on the processing

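VSN, quantile normalization and the 75th percentile of probes bright on all arrays kept all 181 members of the first direction and 145, 154 and 151 of the 165 of the other. Normexp left 18 and 9 probes by the rule. The deposited table gave 109 in the shTCF1 direction and shared 103 and 82 members. Requiring all 6 arrays above background gave 52 and 59, both hairpin groups 52 and 61, a threshold of 0.8 gave 306 and 259, and one of 1.5 gave 80 and 70. Leaving out 1 array gave 228 to 398 and 168 to 504 members. Control lay between the groups for 53 members under normexp, 57 in the deposited table and 145 to 180 with 1 array left out. Calls among members (hairpin mean, shGATA3 and shTCF1 against control) numbered 224, 206 and 214 under normexp and 51, 57 and 54 with only probes bright on all 6 arrays. Without a filter limma called 0, 25 and 14, with 133 hairpin-mean members at an unadjusted p below 0.05. In the deposited table it called 0 in each, with 63, 75 and 89 at an unadjusted p below 0.05. Every contrast with control there uses the column of control replicate 2, which followed no array's intensities closely. Leaving out 1 array gave 19 to 68, 36 to 74 and 35 to 98 calls. The cause of these shifts was not tested, apart from the fewer probes or arrays that some settings hold.

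The replicate numbers did not pair the arrays: the correlations of deviations between groups were -0.040, -0.006 and 0.044. With the replicate block 72, 70 and 90 members were called. The slide and scan-date blocks could not be fitted, as all arrays share 1 slide and 1 scan time. Of the named members' hairpin differences, 275 of the values under alternatives stayed within the replicate spread, 49 moved further, and no sign turned. Leaving out 1 hairpin array could not move a value further, as that shift always lies within the replicate spread. Nor could it turn a sign, as the rule kept the arrays of the groups apart. Of the 6 named calls against control, 24 values lost the call and 60 kept it, all in the same direction. Signal over background limits the dim members, whose differences are bounds.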
